A study of Homo sapiens with 8 samples.

Results

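STC2, INHBE, GDF15, VEGFA and ADM2 encode proteins that cells secrete, and their transcripts were followed here in MOLM-13 cells exposed to the immunoproteasome inhibitor PR-957. The set holds 5 of the 38551 genes with values in the count table. Its members are secreted factors known to be induced under cellular stress, and they were picked because their counts were much lower under PR-957 than under the diluent. That decrease is therefore given as a description without a test, and tests are kept for what the choice did not use.

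MOLM-13 is a human acute myeloid leukemia line of monocytic character that carries a KMT2A::MLLT3 fusion and an internal tandem duplication in FLT3. PR-957, also called ONX-0914, blocks PSMB8, the chymotrypsin-like subunit of the immunoproteasome, which replaces its standard counterpart in blood cells. Polyadenylated RNA was sequenced from 4 libraries of cells given DMSO, the diluent, and from 4 libraries of cells given PR-957 at 100 nM, all taken at 72 h. The model is a single cell line grown in RPMI with fetal bovine serum, at a single dose and a single time.

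Totals ran from 16675036 to 23111223 counts per library, and all levels below are CPM, counts relative to the library's total after scaling by TMM, edgeR's trimmed mean of M-values. The limit that a count of 0 allows, taken as 3 counts of a library's total, lay between 0.130 and 0.180 CPM. The line's myeloid identity was visible in all libraries: 8 markers (CD33, ANPEP, PTPRC, SPI1, FLT3, MPO, CD14 and ITGAM) summed to 921 to 1006 CPM with DMSO against 1055 to 1149 CPM with PR-957, although CD14 itself gave no more than 12 counts in any library. Within that sum the markers differed in direction, with mean levels of 175 and 506 CPM for MPO and 21.8 and 42.5 CPM for ANPEP in DMSO and PR-957, but 340 and 173 CPM for FLT3 and 207 and 131 CPM for PTPRC. Markers of other cells were low, with T cell markers summing to at most 0.524 CPM (CD3E at 0 counts in all libraries) and B cell markers to at most 1.55 CPM. Erythroid markers summed to at most 0.619 CPM. Among epithelial and stromal or endothelial markers only KRT8 (mean 15.8 CPM with DMSO, 7.25 with PR-957) and PECAM1 (49.2 and 83.0 CPM) were abundant. The part of any of these in the results was not tested. In bulk RNA, fewer cells of a type and less RNA per cell cannot be told apart, and CPM does not measure RNA per cell.

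When eIF2 is phosphorylated by one of its stress kinases, general translation slows while the transcription factor ATF4 is translated more efficiently, and ATF4 with partners such as DDIT3 (CHOP) and CEBPG turns on genes of amino acid supply. Several secreted proteins are induced by the same pathway and carry the stress state outside the cell. Stanniocalcin 2 (STC2) inhibits the protease PAPPA, which cuts insulin-like growth factor binding proteins. INHBE encodes the inhibin beta E chain, of which activin E is made. GDF15 is a distant TGF-beta family member that signals through GFRAL and its co-receptor RET to reduce food intake. VEGFA is the main growth factor of endothelial cells and is also a classic target of hypoxia-inducible factors. ADM2, or intermedin, is a peptide hormone of the calcitonin family that acts through CALCRL with a RAMP protein.

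Promoter sequence from RefSeq (GRCh38.p14) was at hand for STC2, GDF15 and ADM2. These stretches are shown because the members are usually grouped by their stress-responsive promoters, and they let that grouping be read against sequence. ATF4 with a C/EBP partner binds composite elements with the core TGATGNAA, hypoxia-inducible factors bind ACGTG or GCGTG, the XBP1 or ATF6 side of the endoplasmic reticulum (ER) stress element is CCACG, and CREB-type dimers bind TGACGTCA. Each was searched on both strands in the window from 250 bases before to 50 after the annotated start. The GCGTG form was added to the search after the data had been seen. The ER stress and hypoxia motifs share letters when they meet, as in GCGTGG, where the last 5 letters are the reverse complement of CCACG. The 250 bases before the ADM2 start, chr22:50481293-50481542 on the plus strand, follow, with the reverse complement of CCACG in capitals. For STC2 (chr5:173328618-173328647, minus strand) and GDF15 (chr19:18386117-18386146, plus strand) only 30 bases around the match are given, because counted exons of longer transcripts cover their upstream windows. Capitals again mark the reverse complement of CCACG in STC2, and a TATA box in GDF15.
ADM2: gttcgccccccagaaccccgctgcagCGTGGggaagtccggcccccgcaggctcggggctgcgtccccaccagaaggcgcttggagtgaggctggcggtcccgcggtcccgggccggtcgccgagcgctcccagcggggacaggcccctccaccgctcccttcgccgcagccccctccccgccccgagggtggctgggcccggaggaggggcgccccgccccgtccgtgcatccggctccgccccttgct
STC2: cgcacgcaaacgCGTGGccgccgccaggtc
GDF15: aagtccggggacTATAAAggccggtccggc

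CCACG was present in the STC2 and ADM2 windows, where its first base lay 221 and 224 bases before the start, and in 38.1% of the 35116 promoters of the same length. None of the 3 windows held TGATGNAA, ACGTG or TGACGTCA, which occurred in 3.62%, 21.4% and 1.85% of all promoters. GCGTG was present in STC2 and ADM2, as in 36.5% of promoters, and in both a match starting 222 and 225 bases before the start overlapped the printed capitals. The GDF15 match to TATAAA, a motif added after the data had been seen, lay 29 bases before the start and was shared by 11.5% of promoters. The upstream windows of STC2, GDF15 and ADM2 were 63.6%, 58.4% and 78.8% G or C, against a median of 58.0% over all promoters. A match is a string of letters and not a bound site, and elements outside these windows were not searched.

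STC2, on chromosome 5 (hg38, 173314723 to 173329503, minus strand), gave 898, 1072, 868 and 1276 counts in DMSO replicates 1 to 4, and 60, 70, 91 and 46 counts in PR-957 replicates 1 to 4. In CPM these were 56.2, 59.7, 52.4 and 55.7 in DMSO and 3.34, 3.65, 4.15 and 2.59 in PR-957. The DMSO libraries lay close together and far above all PR-957 libraries. The group means were 56.0 ± 2.99 and 3.43 ± 0.657 CPM (SD, n = 4 each), a log2 fold change of -4.01 (SE 0.10), or 16.1-fold lower. STC2 thus kept 6.19% of its DMSO level, and 7 genes of the 13179 tested had a lower log2 fold change.

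INHBE, on chromosome 12 (57455307 to 57458025, plus strand), gave 147, 212, 209 and 301 counts in DMSO and 6, 15, 29 and 8 counts in PR-957. The levels were 9.21, 11.8, 12.6 and 13.1 CPM in DMSO and 0.334, 0.783, 1.32 and 0.450 CPM in PR-957. The groups did not overlap, and the PR-957 libraries differed most among themselves of any member, with a coefficient of variation of 61.4%, PR-957 replicate 3 being the highest. Means of 11.7 ± 1.75 and 0.723 ± 0.444 CPM (SD, n = 4 each) gave a log2 fold change of -3.96 (SE 0.26), or 15.6-fold.

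GDF15, on chromosome 19 (18382170 to 18389176, plus strand), was a rare transcript already in DMSO, with 63, 64, 79 and 113 counts, and it gave 7, 8, 8 and 9 counts in PR-957. In CPM the DMSO libraries stood at 3.95, 3.56, 4.77 and 4.94, and the PR-957 libraries at 0.3899, 0.418, 0.365 and 0.506. The PR-957 counts were all within a few counts of one another and above the limit that a count of 0 allows. The means of 4.30 ± 0.656 and 0.420 ± 0.0614 CPM (SD, n = 4 each) corresponded to a log2 fold change of -3.35 (SE 0.25), or 10.2-fold. The microRNA gene MIR3189 lies within GDF15 on the same strand, shares no counted exon with it, and had 0 counts in all libraries.

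ADM2, on chromosome 22 (50481543 to 50486437, plus strand), gave 118, 165, 97 and 140 counts in DMSO and 21, 16, 10 and 11 counts in PR-957. The corresponding levels were 7.39, 9.19, 5.86 and 6.12 CPM and 1.17, 0.835, 0.457 and 0.619 CPM, again without overlap between the groups. From 7.14 ± 1.52 to 0.770 ± 0.308 CPM (SD, n = 4 each), the log2 fold change was -3.22 (SE 0.25), or 9.31-fold. MIOX, an enzyme of inositol breakdown, covers 56.0% of the ADM2 exon bases on the same strand, and fragments falling in both genes are not counted for either by default. The ADM2 level is uncertain for that reason. MIOX itself gave 8, 1, 3 and 11 counts in DMSO and 0 counts in each PR-957 library.

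VEGFA, on chromosome 6 (43770209 to 43786487, plus strand), was the abundant member, with 7770, 9012, 7572 and 12357 counts in DMSO and 2229, 2514, 3002 and 2453 counts in PR-957. Its levels of 487, 502, 457 and 539.8 CPM in DMSO and 124, 131, 137 and 138 CPM in PR-957 left a wide gap between the groups. The means were 496 ± 34.4 and 133 ± 6.37 CPM (SD, n = 4 each), and the log2 fold change was -1.90 (SE 0.06), or 3.74-fold. VEGFA had the smallest relative change of the set and by far the largest change in CPM, and it kept 26.7% of its DMSO level.

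**Figure D1:**
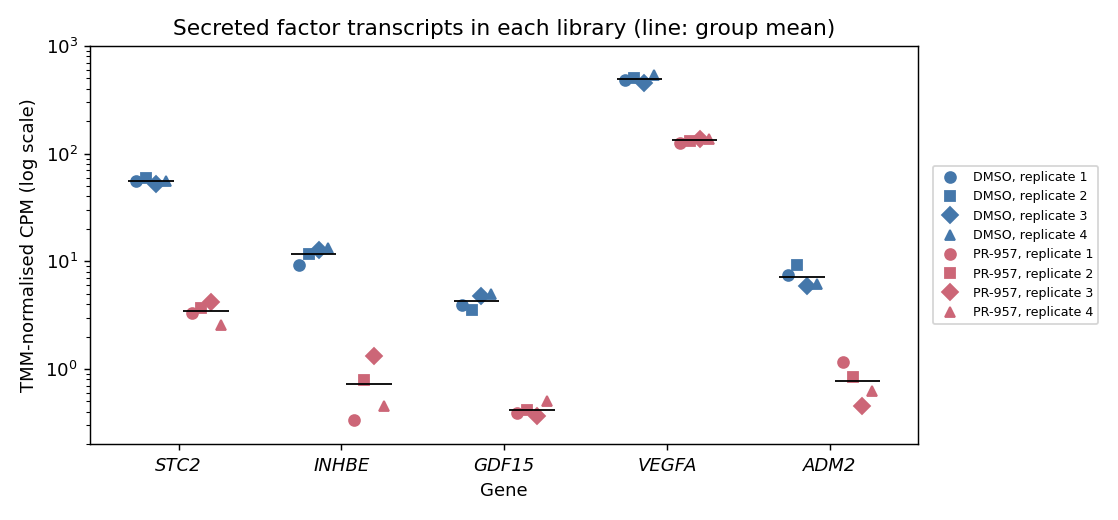
Level of each secreted factor (y axis, TMM-normalised CPM on a log scale) in each of the 8 libraries, by gene on the x axis, DMSO in blue and PR-957 in red, with a black line at the group mean (n = 4). In all 5 genes every DMSO library lies above every PR-957 library, and the spread among PR-957 libraries is widest for INHBE, from 0.334 to 1.32 CPM.

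In 5 of 5 members the lowest DMSO library exceeded the highest PR-957 library, a pattern that held for 21.7% of all 13179 tested genes, and 4 of 5 were lower by 4-fold or more, against 0.493% of tested genes that were called and lower by 4-fold or more. Since the choice of members used this contrast, nothing is read from either count. VEGFA had the smallest change, with 78 genes showing a lower log2 fold change, and the other members ranked 8, 9, 20 and 26 from the lowest (STC2, INHBE, GDF15 and ADM2). No threshold was set in the choice, so no member just outside it can be given.

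**Figure D2:**
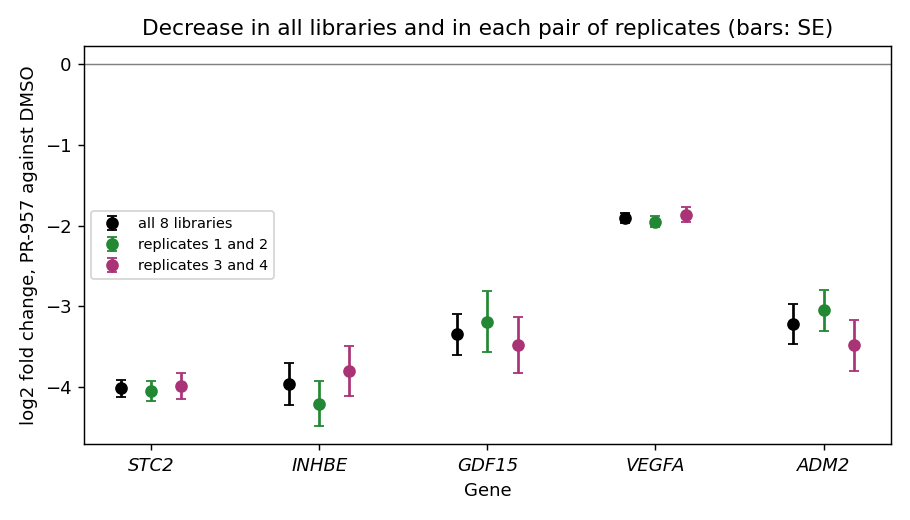
log2 fold change of PR-957 against DMSO (y axis) for each secreted factor (x axis), with bars of 1 standard error, from all 8 libraries and from replicates 1 and 2 and replicates 3 and 4 fitted separately. VEGFA has the smallest change in each fit and sits apart at -1.90 with all 8 libraries.

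Per kilobase of exon, which allows levels of different genes to be set side by side, the order in DMSO was VEGFA (131 ± 9.06 CPM per kilobase), STC2 (10.5 ± 0.559), INHBE (4.75 ± 0.711), GDF15 (2.50 ± 0.382) and ADM2 (1.67 ± 0.355; SD, n = 4 each). With this length neighbours in the order were separated in every library except GDF15 and ADM2, whose ranges overlapped. In PR-957 the order was the same, at 34.9 ± 1.68, 0.643 ± 0.123, 0.294 ± 0.180, 0.244 ± 0.0357 and 0.180 ± 0.0719 CPM per kilobase. There only VEGFA stood apart from its neighbour, since STC2 overlapped INHBE, INHBE overlapped GDF15, and GDF15 overlapped ADM2. Levels depended on the length used. With the longest annotated transcript VEGFA stood at 40.8 ± 2.83 CPM per kilobase in DMSO, the order was kept, and GDF15 and ADM2 in DMSO and STC2 and INHBE in PR-957 no longer overlapped. With only the 1886 exon bases that ADM2 does not share with MIOX, a length added after the data had been seen, ADM2 stood at 3.78 ± 0.807 CPM per kilobase in DMSO and 0.408 ± 0.164 in PR-957, with its mean above that of GDF15 in both groups and above that of INHBE in PR-957. Its range was apart from that of GDF15 in DMSO only and overlapped that of INHBE in both groups. The place of ADM2 in the order is therefore uncertain. Summed over the 5 genes, the transcripts made up 533 to 620 CPM with DMSO, against 129 to 143 with PR-957. VEGFA supplied 85.6% to 87.1% of that sum in DMSO and 95.6% to 97.1% in PR-957, and without it the sum was 75.6 to 84.3 CPM with DMSO, against 4.16 to 6.30 with PR-957.

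Whether the size of the change differed between replicates 1 and 2 and replicates 3 and 4 is a question the choice of members did not use, and it was added after the data had been seen. Taken separately, replicates 1 and 2 gave log2 fold changes of -4.05 (SE 0.12) for STC2, -4.20 (SE 0.28) for INHBE, -3.19 (SE 0.38) for GDF15, -1.95 (SE 0.06) for VEGFA and -3.05 (SE 0.26) for ADM2. Replicates 3 and 4 gave -3.98 (SE 0.16), -3.80 (SE 0.30), -3.48 (SE 0.35), -1.86 (SE 0.09) and -3.48 (SE 0.32) in the same order. An interaction term of treatment with replicate pair was called in 0 of 5 members by edgeR (0 at an unadjusted p under 0.05), and in 0.0379% of all tested genes. Its estimates ran from -0.43 (SE 0.44) in ADM2 to 0.41 (SE 0.52) in INHBE on the log2 scale, with adjusted p from 0.891 to 0.976, which leaves room for sizeable differences in the rarer members. VEGFA, at 0.09 (SE 0.11), was the most tightly bounded. Nothing in the labels says that the replicates came from separate cultures, so p-values measure the spread between these libraries, which may be technical.

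With the group means taken off, the Pearson correlation between pairs of members over the 8 libraries ran from -0.70 (GDF15 with STC2) to 0.67 (INHBE with STC2). These values share libraries and depth, rest for GDF15, INHBE and ADM2 on few counts in PR-957, where counting error alone adds spread, and are a description. Over the 8 libraries as they stand, the genes whose log2 levels followed the mean profile of the members most closely, of 11193 ranked, were RAB6A, USP22, P2RX7, SLC7A11 and GRB10, with r from 0.998 to 0.999. RAB6A is a Golgi GTPase, USP22 a histone deubiquitinase, P2RX7 an ATP-gated ion channel, SLC7A11 the cystine transporter subunit and GRB10 an adaptor of insulin signalling, and this likeness rests mainly on the step between the groups. With the group means taken off the closest genes were EFCAB7, MCPH1, RPS6KA5, C21orf91 and SNORD96A (r from 0.941 to 0.967). These are the top values of 11193 genes over only 8 libraries, where high r can arise by chance, so nothing is read from them.

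Genes for stress transcription factors were mostly lower in the same libraries, whereas those for the eIF2 kinases were not. Of 19 genes for stress transcription factors and eIF2 phosphorylation, 13 were lower and 2 higher (edgeR, adjusted p under 0.05), against 23.5% and 23.1% of all tested genes, and the list's median log2 fold change was -0.74 against 0.003 over all genes. This list, like the others here, was drawn up with earlier results of these libraries known. ATF4, the factor named as common regulator of the members, fell from 963 ± 62.7 to 545 ± 18.9 CPM (log2 fold change -0.82, SE 0.06, adjusted p = 1.42e-09). Its mRNA is only one layer, since ATF4 is controlled largely at translation, which these data do not measure. Several other genes of the list showed larger decreases, while the ATF4 partner CEBPG, named after its values were seen, fell by 0.71. TRIB3, a pseudokinase that restrains ATF4, fell by 3.05 on the log2 scale (SE 0.07, adjusted p = 1.85e-16). DDIT3 (CHOP) fell from 82.2 to 18.8 CPM (-2.13, SE 0.08, adjusted p = 6.38e-14), and ATF5 from 164 to 23.7 CPM (-2.79, SE 0.08, adjusted p = 1.68e-14). The stress-induced factors ATF3 (-1.74, SE 0.13, adjusted p = 1.74e-09), NUPR1 (-3.45, SE 0.31, adjusted p = 4.4e-08) and CEBPB (-1.52, SE 0.25, adjusted p = 0.00257) were also lower. The 2 genes that rose were EIF2S1, the phosphorylated eIF2 subunit itself (0.50, adjusted p = 5.56e-06), and the kinase EIF2AK1 (0.19, adjusted p = 0.00463). The latter lost its call with replicates 3 and 4 only (adjusted p = 0.0792). The other eIF2 kinase genes, EIF2AK2 (-0.13, adjusted p = 0.195), EIF2AK3 (-0.17, adjusted p = 0.144) and EIF2AK4 (0.05, adjusted p = 0.646), did not pass.

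Among targets of ATF4 that stay inside the cell, 13 of 14 could be tested and 13 of those 13 were lower, 12 of them by 2-fold or more, against 2.39% of all tested genes. The list's median was -1.76. CHAC1, which degrades glutathione, had the lowest value at -3.55, ahead of CTH, which makes cysteine, at -2.80, DDIT4, an inhibitor of mTORC1, at -2.16, and ASNS, asparagine synthetase, at -2.01. On the same scale STC2 (-4.01) and INHBE (-3.96) lay below every tested intracellular target, GDF15 (-3.35) and ADM2 (-3.22) lay between CHAC1 and CTH, and VEGFA (-1.90) lay near the median of the list. The members were picked for low values, and that comparison is therefore a description. The target list too was drawn up with earlier results of these libraries known.

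**Figure D3:**
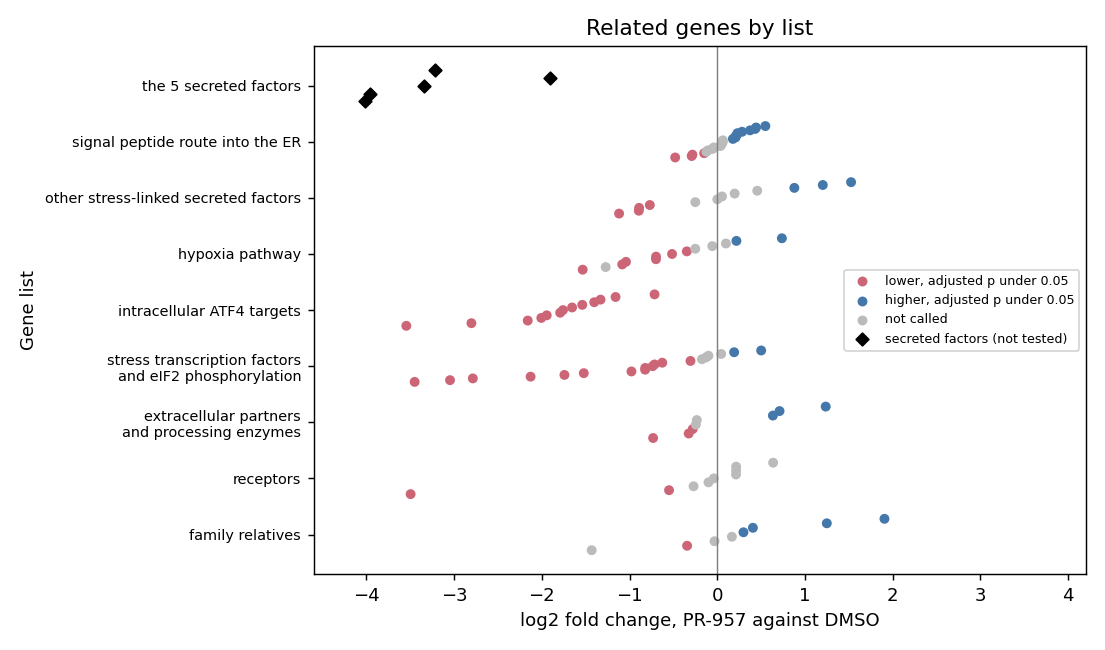
log2 fold change of PR-957 against DMSO (x axis) for the secreted factors (black diamonds, not tested) and for the tested genes of each related list (y axis), coloured by edgeR call at an adjusted p under 0.05. The intracellular ATF4 targets all lie below 0, whereas the signal peptide route lies around 0 and family relatives, receptors and partners lie on both sides.

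Secreted proteins enter the ER through the signal recognition particle, the translocon and signal peptidase. Of 23 genes for this route 10 were higher and 4 lower by edgeR, against 23.1% and 23.5% of all tested genes, with a median log2 fold change of 0.06. SEC61G, a subunit of the translocon channel, rose from 82.5 to 120.9 CPM (0.55, SE 0.06, adjusted p = 1.19e-06), and SEC63, a translocation co-factor, fell from 334 to 239.5 CPM (-0.48, SE 0.05, adjusted p = 2.92e-07). SEC63 was named after its values had been seen.

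The closest relatives of the members in their own families were not uniformly lower. Of 18 such genes 8 could be tested, and 4 were higher and 1 lower, against 23.1% and 23.5% of all tested genes. The list's median log2 fold change was 0.23. INHBB, which encodes the beta B chain of the activins and is thus a relative of INHBE, rose from 0.732 ± 0.279 to 2.79 ± 0.629 CPM (SD, n = 4 each; log2 fold change 1.91, SE 0.29, adjusted p = 2.4e-05). TGFB2, a TGF-beta ligand, rose from 0.462 to 1.09 CPM (1.25, SE 0.34, adjusted p = 0.00488), and with replicates 3 and 4 only its adjusted p was 0.0556. INHBC, which adjoins INHBE in the genome, was too rare to test, with 8 counts over the DMSO libraries and 5 over the PR-957 libraries. TGFB1, the abundant ligand of the family, stood at 142 and 139 CPM (-0.03, SE 0.11, adjusted p = 0.847), and replicates 1 and 2 alone gave 0.17 with an adjusted p of 0.0405.

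VEGFB, the nearest tested relative of VEGFA and a weaker angiogenic factor, fell from 11.96 to 9.42 CPM (-0.34, SE 0.11, adjusted p = 0.0115), a call that was lost within replicates 1 and 2 (adjusted p = 0.0945) and within replicates 3 and 4 (adjusted p = 0.0579). The ADM2 relative ADM, or adrenomedullin, stood at 9.98 ± 7.87 CPM with DMSO, against 3.75 ± 0.555 with PR-957 (SD, n = 4 each), with a log2 fold change of -1.43 (SE 0.59) that did not pass (adjusted p = 0.0911, range over alternatives 0.0322 to 0.368). Without DMSO replicate 4, which had the highest ADM level, the change was -0.74 (adjusted p = 0.0425). STC1, the paralog of STC2, gave 12 counts over the DMSO libraries and 0 over the PR-957 libraries and was not tested.

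Receptors for the 5 factors were sparsely expressed in MOLM-13. Of 16 genes 9 could be tested, and 0 were higher and 2 lower, against 23.1% and 23.5% of all tested genes. GFRAL, KDR, RAMP1 and RAMP3 had 0 counts in all libraries. GFRAL is the specific receptor of GDF15, KDR the main signalling receptor of VEGFA, and the RAMP proteins give CALCRL its ligand preference. RET, the co-receptor of GFRAL, was abundant all the same, at 305 ± 40.3 CPM with DMSO, against 354 ± 44.6 with PR-957 (SD, n = 4 each; 0.22, SE 0.11, adjusted p = 0.146, range over alternatives 0.000496 to 0.296).

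FLT1, which binds VEGFA at the cell surface and also exists as a soluble decoy, gave 55, 40, 29 and 310 counts in DMSO and 5, 5, 9 and 17 counts in PR-957. DMSO replicate 4 was far above the other DMSO libraries, and the groups did not overlap. The log2 fold change was -3.50 (SE 0.95, adjusted p = 0.0235). It was -2.38 without DMSO replicate 4 (adjusted p = 3.3e-05), and the call was lost without PR-957 replicates 1, 2 or 3 (adjusted p = 0.0640, 0.0649 and 0.0686) and with replicates 3 and 4 only (adjusted p = 0.263). ACVR2B, a type II receptor for activins, fell from 18.4 to 12.6 CPM (-0.55, SE 0.10, adjusted p = 0.000215). The number of receptors called was 2 in the full set and 1 without PR-957 replicate 1, 2 or 3, and 4 without DMSO replicate 4.

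Extracellular partners and processing enzymes went both ways, with 3 of 8 tested genes higher and 3 lower out of 12 listed. Over all tested genes 23.1% were higher and 23.5% lower, and the list's median log2 fold change was -0.24. FURIN, the proprotein convertase that cleaves precursors of the TGF-beta family, fell from 77.9 ± 3.84 to 62.2 ± 3.79 CPM (SD, n = 4 each; -0.33, SE 0.06, adjusted p = 0.000215), while the convertase PCSK7 rose (0.64, adjusted p = 7.84e-07). PAM, which amidates the carboxyl end of peptide hormones such as the adrenomedullins, fell from 30.4 to 18.4 CPM (-0.73, SE 0.10, adjusted p = 1.68e-05), with DMSO replicate 4 the highest at 37.8 CPM. HPSE, the heparan sulfate-degrading heparanase that can free matrix-bound VEGFA, rose from 2.57 to 6.04 CPM (1.24, SE 0.19, adjusted p = 3.47e-05). IGFBP4, the binding protein cut by the STC2 target PAPPA, rose from 8.56 to 13.96 CPM (0.71, SE 0.10, adjusted p = 1.64e-05). PAPPA itself gave 0 counts over the DMSO libraries and 1 over the PR-957 libraries and was not tested.

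VEGFA is also a hypoxia target, and genes of that pathway were looked at beside it. Of 13 tested genes of 15 listed, 7 were lower and 2 higher by edgeR, 3 of them lower by 2-fold or more, with a median of -0.51. Over all tested genes 23.5% were lower, 23.1% higher and 2.39% lower by 2-fold or more. HIF1A, the oxygen-regulated subunit, fell from 52.3 to 41.2 CPM (-0.35, SE 0.07, adjusted p = 0.000284), and EPAS1, which encodes HIF-2 alpha, rose (0.74, adjusted p = 2.38e-05). BNIP3, a mitophagy receptor, fell from 117 ± 46.9 to 40.5 ± 1.66 CPM (SD, n = 4 each; -1.53, SE 0.28, adjusted p = 0.00451), PDK1, which holds pyruvate back from the mitochondria, fell by 1.08 (adjusted p = 7.45e-07), and P4HA1, a collagen prolyl hydroxylase, fell by 1.04 on the log2 scale (SE 0.22, adjusted p = 0.00738). With replicates 3 and 4 only, BNIP3 and P4HA1 were no longer called (adjusted p = 0.113 and 0.125).

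For some of these genes the size of the decrease depended on DMSO replicate 4. That library was the highest of the 8 for 8 of the 13 tested hypoxia genes, against 18.7% of all tested genes. The latter share includes genes higher in PR-957, where a DMSO library is seldom the highest, so it is a low base for this list. Its level relative to the mean of DMSO replicates 1 to 3 was 1.12 for VEGFA, with a median of 1.16 over the hypoxia genes and 0.985 over all tested genes, and it reached 2.89 for NDRG1. VEGFA was highest in this library too. Its ratio was below that of 8 of the 13 hypoxia genes, not all of which were highest there. Without DMSO replicate 4 the VEGFA log2 fold change was -1.86, that of BNIP3 -1.21 and that of P4HA1 -0.79. The VEGFA decrease was thus nearly as large without this library. The hypoxia list without it counted 8 lower and 3 higher of 13, with a median of -0.48. What set DMSO replicate 4 apart was not tested.

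**Figure D4:**
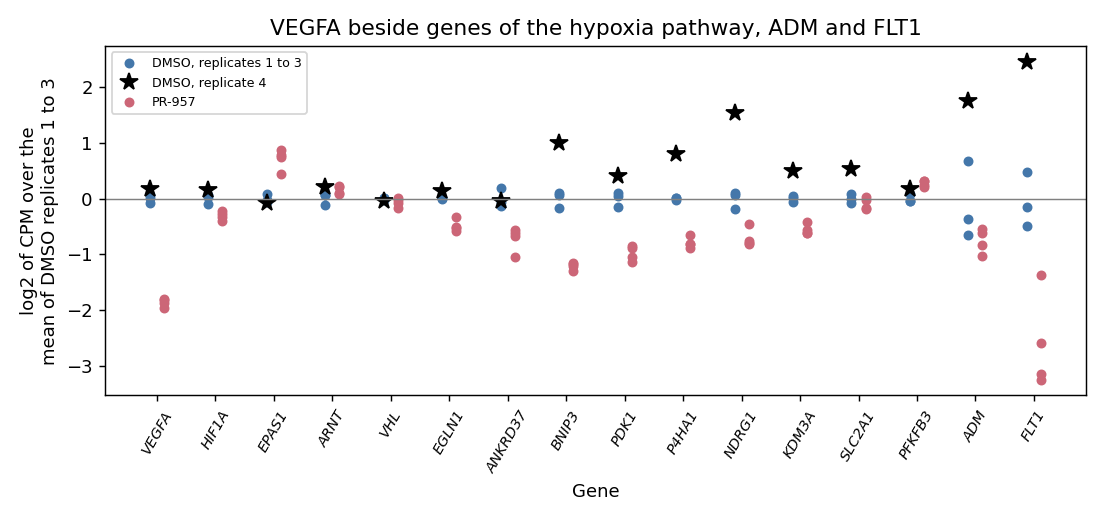
Level of VEGFA, the 13 tested hypoxia genes, ADM and FLT1 (x axis) in each library, as log2 ratio of CPM to the mean of DMSO replicates 1 to 3 (y axis), with DMSO replicates 1 to 3 in blue, DMSO replicate 4 as black stars and PR-957 in red. DMSO replicate 4 stands well above the other DMSO libraries for ADM, FLT1, NDRG1, BNIP3 and P4HA1 and only slightly for VEGFA, whose 4 PR-957 libraries lie between -1.96 and -1.80.

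Of 25 other secreted factors linked to stress 12 could be tested. Of these 3 were higher and 4 lower, against 23.1% and 23.5% of all tested genes, with a median of 0.03. Those that rose were MANF, a neurotrophic factor released under ER stress (37.2 to 68.3 CPM, 0.88, SE 0.07, adjusted p = 8.17e-09), CRELD2, an ER stress-induced protein (9.80 to 22.5 CPM, 1.20, SE 0.10, adjusted p = 1.81e-08), and CXCL8, the neutrophil chemokine (2.08 ± 0.932 to 6.13 ± 2.05 CPM, SD, n = 4 each, 1.53, SE 0.30, adjusted p = 0.00119). The growth factors PDGFA (-0.89, adjusted p = 2.8e-06) and HBEGF (-0.77, adjusted p = 1.28e-05) fell, as did CDNF, a relative of MANF (-1.12, adjusted p = 0.00381). ANGPTL6 was also lower by edgeR (-0.89, adjusted p = 0.0251), and the list counted 3 lower with DESeq2. XBP1, a transcription factor of the ER stress response from the stress factor list, fell over the same comparison (-0.98, adjusted p = 9.34e-11).

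The tested genes on either side of each member are given next. Of these 10 neighbours 6 were lower and 1 higher, against 23.5% and 23.1% of all tested genes (46.6% called in either direction). Each changed less than the member beside it, which the choice of members for large decreases makes likely, so nothing is read from that. LOC105377732, a noncoding transcript whose gene lies 55485 bases from STC2, fell from 2.26 to 0.405 CPM (-2.47, SE 0.34, adjusted p = 6.84e-06), while BNIP1 on the other side of STC2 did not pass (-0.15, adjusted p = 0.294). Beside INHBE, GLI1, a transcription factor of hedgehog signalling that begins 1760 bases downstream on the same strand, fell from 2.47 to 1.03 CPM (-1.27, SE 0.27, adjusted p = 0.000688), and R3HDM2 fell by 0.68 (adjusted p = 3.64e-08). PGPEP1 beside GDF15 fell by 0.55 (adjusted p = 5.11e-07), and LRRC25 on its other side did not pass (-0.30, adjusted p = 0.192).

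Beside VEGFA, C6orf223 fell from 47.6 ± 21.6 to 18.2 CPM (SD, n = 4; -1.39, adjusted p = 0.0121), with DMSO replicate 4 at 80.1 CPM against 35.8 to 38.0 CPM in the other DMSO libraries. Its change was -1.01 without that library, and the call was lost with replicates 3 and 4 only (adjusted p = 0.169). MRPS18A, on the other side, did not pass (-0.16, adjusted p = 0.0537). Around ADM2, SBF1 was lower by a small margin (-0.18, adjusted p = 0.0123, and 0.150 with library totals alone) and LMF2 was higher (0.36, adjusted p = 0.0014).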

How the data were processed

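RNA-seq libraries of MOLM-13 cells (4 DMSO, 4 PR-957) were grouped by their treatment labels. Per the labels and the study's methods, the authors trimmed reads with Trimmomatic 0.39, aligned them to hg38 with STAR 2.7.10a and counted fragments per RefSeq gene with featureCounts 2.0.1 under the reverse-strand setting. The deposited values are raw counts, and multi-mapped or shared fragments are absent by default. The labels do not say whether the library kit keeps strand. The authors' table of fold changes and p-values was not used, and 6 rows without values were left out. Totals of 16675036 to 23111223 counts limit precision for the rarer members.

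Genes passing edgeR's filterByExpr (13179) were fitted with TMM scaling and edgeR 4.0.16 (quasi-likelihood test, Benjamini-Hochberg adjustment over all genes, adjusted p threshold 0.05, R 4.3.3), and the fit was tested on simulated data. No 2 libraries agreed within sampling noise (lowest chi-square per gene 3.32). Alternatives were DESeq2 1.42.0, limma 3.58.1 (voom), other scalings and filters, a replicate block, a 2-level term for replicates 1 and 2 against 3 and 4, each replicate pair alone, and each library left out. The SE of an edgeR log2 fold change was taken as its absolute size divided by the square root of the test's F statistic. Correlations used log2 CPM. Levels per kilobase used the exon length deposited with the counts, and for comparison the longest annotated transcript or unshared exon bases.

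The members and gene lists were chosen with earlier results of these data known. Named were the members, called list genes changed by 2-fold or more, the gene with the largest change in each list, preset regulators and relatives (ATF4, ATF3, DDIT3, HIF1A, FURIN, RET, STC1, ADM, VEGFB, INHBC, TGFB1), the nearest tested neighbours and the most alike genes. The following were named after their values were seen: CEBPG, EIF2S1, EIF2AK1, EIF2AK2, EIF2AK3, EIF2AK4, XBP1, ACVR2B, PCSK7, PAM, IGFBP4, PAPPA, SEC63, EPAS1, EGLN1, NDRG1, MANF, PDGFA, HBEGF and ANGPTL6. One further preset gene and its pathway list are not reported here.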

Additional observations from a re-analysis of the deposited data

Results flagged for a closer look

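Among 146 groups of 4 libraries looked at, 14 held a library whose distance to the nearest of the others, as a share of the group's range, exceeded Dixon's 95% critical value. Chance flags about 5% of independent groups. Some of these genes were named after their values were seen, and genes of a pathway may vary together. That share is therefore no yardstick here. None of the 5 secreted factors was among them. DMSO replicate 4 supplied 10 of the 14. It was high for BNIP3 (186 CPM, others 83.1 to 99.8), NDRG1 (166 CPM, others 50.5 to 61.8), P4HA1 (127 CPM, others 72.1 to 73.9), EGLN1 (159 CPM, others 144 to 146), FLT1 (13.5 CPM, others 1.75 to 3.45 CPM), C6orf223 (80.1 CPM, others 35.8 to 38.0) and PAM (37.8 CPM, others 27.0 to 28.6). It was low for the serine synthesis enzymes PHGDH (504.6 CPM, others 569.7 to 582) and PSAT1 (427 CPM, others 503 to 510.0), and for CEBPG (227 CPM, others 244 to 248). The remaining ones were ASNS in DMSO replicate 2 (4.23 CPM, others 2.78 to 3.01), MRPS18A in DMSO replicate 3 (68.5 CPM, others 58.7 to 59.6), R3HDM2 in PR-957 replicate 4 (72.6 CPM, others 64.1 to 65.3) and NDRG1 in PR-957 replicate 4 (42.0 CPM, others 32.7 to 33.8). The cause was not tested.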

How the results depend on the processing

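Over 19 alternatives the log2 fold change ran from -4.12 to -3.91 in STC2, -4.46 to -3.74 in INHBE, -3.48 to -3.19 in GDF15, -1.95 to -1.83 in VEGFA and -3.49 to -3.02 in ADM2. Library totals alone shifted the median of all genes by 0.08 on the log2 scale and gave 4066 genes higher and 2353 lower, against 3045 and 3098 with TMM. Genes called lower by 2-fold or more numbered 315, and 481 with no filter on low counts, where more rare genes are tested. Of the family relatives 5 were called, and 3 with replicates 3 and 4 only. Of the receptors 2 were called, against 4 with the 2-level term, 5 with library totals alone, 5 with the replicate block, 4 with replicates 1 and 2 only and 1 with replicates 3 and 4 only, and 1 to 4 with 1 library left out. TGFB1 changed sign to 0.17 with replicates 1 and 2 only. With unshared exon bases only, the order of levels per kilobase gave ADM2 place 4 and GDF15 place 5 in DMSO, and ADM2 place 3, INHBE place 4 and GDF15 place 5 in PR-957. Other list counts stayed within 1.5 times. Apart from the fewer genes, libraries or bases some of these use, the cause was not tested.

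The replicate numbers were not taken as pairs, since nothing in the labels says that they pair the libraries. Same-numbered libraries correlated in their deviations from the group means at 0.151, 0.213, 0.0985 and 0.198. PR-957 replicate 3 correlated best with DMSO replicate 4 (0.105). Between the groups, correlations within replicates 1 and 2 and within replicates 3 and 4 were all positive, from 0.0737 to 0.213. Those across the 2 pairs were all negative, from -0.187 to -0.0411. Deviations from a group mean cancel within the group, so positive values force negative ones elsewhere. With the number as a replicate block 6913 genes were called, against 6143 without it. Depth limits GDF15, INHBE and ADM2 most, with 32, 58 and 58 counts over the 4 PR-957 libraries, and intervals between libraries do not separate counting error from other spread.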
